A study of Mus musculus with 8 samples.

Results

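Messenger RNA on the ribosomes of Sox9-lineage cells of the mouse lung at embryonic day 14 (E14) was set against RNA of the whole organ at the same stage. The comparison rests on 2 of the 8 libraries of the series, 1 of translating ribosome affinity purification (TRAP) and 1 of whole lung. Its members are the 12099 gene records, of 24487 in each table, that had a mean of at least 1 FPKM over both libraries and spanned at least 200 bases (kept records). FPKM counts sequenced fragments scaled to the length of the transcript and to the size of the library, so levels can be compared between genes. Both libraries came from wild-type C57BL/6 embryonic lung in which TRAP labelling had been induced with tamoxifen. In the TRAP library, ribosomes were captured by immunoprecipitation through the ribosomal protein L10. The labels do not name the allele or promoter that drove the labelling, and they do not say how many embryos went into a library. The design text of the series calls the E14 reference a supernatant, whereas the labels of that library call it a homogenate of whole lung, and it is called whole lung here. A supernatant would lack what the pulldown removed. The pair of TRAP and whole lung libraries at E17, labelled in the same way, and the 2 TRAP libraries of wild-type lung at E16 are given beside E14 where they help.

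In the lung at this stage a branching epithelium grows into mesenchyme. The tips of its branches hold progenitors marked by the transcription factors SOX9 and ID2, and the cells left behind the tips form the stalks and airways. FGF10 from the mesenchyme acts on FGFR2 in the tips and induces the ETS factors ETV4 and ETV5, while the epithelium sends SHH, BMP4 and WNT7B to the mesenchyme. In TRAP a tagged ribosomal protein is made only in labelled cells, so the captured RNA is biased towards those cells and towards RNA bound by ribosomes.

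With 1 library in each group no test of TRAP against whole lung was possible at E14, and no difference below has a replicate check. A difference is that of log2(FPKM + 1), TRAP minus whole lung, which understates the change of low genes. "Higher" and "lower" mean a difference of at least 2-fold (1 on the log2 scale) in this pair. Intervals in brackets come from the confidence bounds that the authors deposited with each value and cover counting error only. About 9783768 fragments lay behind the TRAP values and 21500523 behind those of whole lung, as computed from these bounds, with a median of 364 and 865 per kept record. The TRAP values are thus the less precise of the pair. In a bulk library, fewer cells of a type and less RNA per cell cannot be told apart.

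The gene that the libraries are titled for was higher in TRAP. Sox9, on chromosome 11 from 112782210 to 112787757 (mm10), had 63.9 FPKM in TRAP and 15 in whole lung, and 68.5 and 16.7 FPKM in the E17 pair. Its level in TRAP was above that of whole lung at both stages, with a difference of 2.02 at E14 (interval 1.94 to 2.10). In the E16 wild-type TRAP libraries it had 35.9 and 36.4 FPKM. Levels of other genes differed as well: the ribosomal gene Rpl41 had 24615 and 25052 FPKM there. In TRAP at E14 and E17 Rpl41 had 8018 and 7571 FPKM. Stage and set of libraries cannot be told apart in such levels.

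Of the 12099 kept records, 738 (6.10%) were higher in TRAP and 1133 (9.36%) were lower, while 10228 lay within 2-fold. The median difference was 0.03 and the quartiles were -0.38 and 0.41. The spread was lopsided: the largest excess in TRAP was 6.70-fold, whereas 49 records were at least 8-fold lower and 0 were at least 8-fold higher. Past 4-fold stood 98 higher and 296 lower records. Among records with a mean between 1 and 3 FPKM, 5% were higher and 16.4% lower; at 100 FPKM or more, 6.79% were higher and 2.56% lower. Since the filter uses the mean of both libraries, a record just past it that was near 0 in one library had to differ, so counts of low genes describe the tables and support nothing further. When both libraries were rescaled to a common FPKM total, the median moved to -0.08 and the counts to 588 and 1319.

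**Figure D1:**
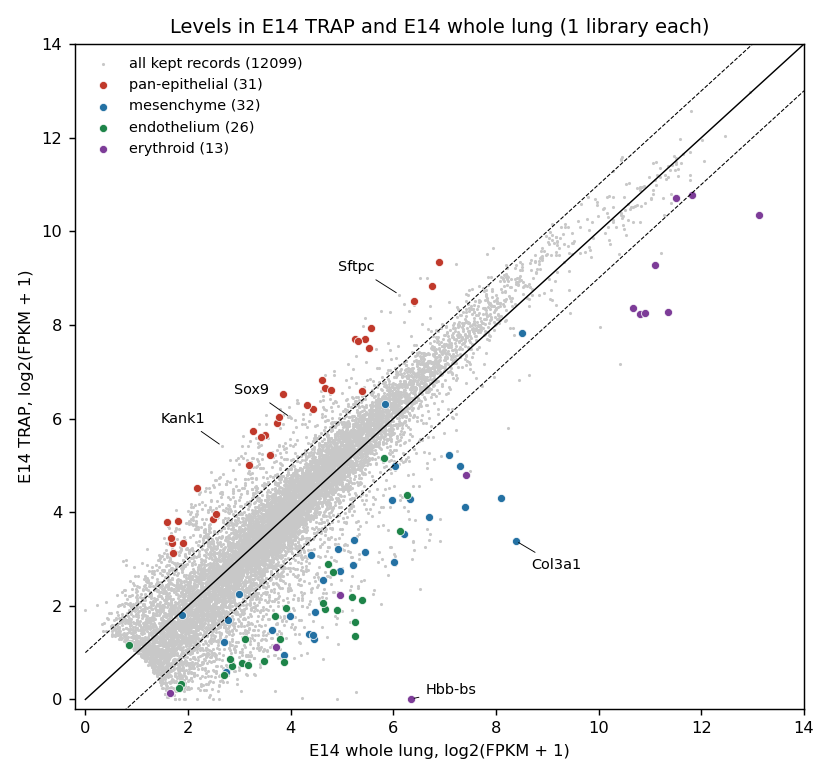
Level of every kept record in E14 TRAP (vertical) against E14 whole lung (horizontal), both as log2(FPKM + 1), 1 library each. The solid line marks equal levels and the dashed lines 2-fold. The 31 pan-epithelial records lie above the upper dashed line, and most mesenchymal, endothelial and erythroid records lie below the lower one, with Hbb-bs at 0.00621 FPKM in TRAP.

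General epithelial genes lay on the TRAP side. All 31 kept members of a list of 32 pan-epithelial genes were higher in TRAP, against 6.10% of all kept records, with a median of 2.07 and a range of 1.2 to 2.67. All 31 stayed past 2-fold after rescaling. The member below the filter, Ehf, had 0.756 and 0.281 FPKM. Crb3, which sets the apical pole of epithelial cells, led with 91.1 FPKM in TRAP and 13.5 in whole lung (2.67, interval 2.52 to 2.83). Spint2, an inhibitor of membrane serine proteases, was the most abundant member with 651 FPKM in TRAP and 117 in whole lung (2.47). Rab25, a small GTPase of apical recycling, had 52.3 FPKM in TRAP and 8.65 in whole lung (2.47). Epcam, the epithelial adhesion molecule, had 366 FPKM in TRAP and 84.1 in whole lung (2.11), and the splicing regulators Esrp1 and Esrp2 stood at 1.63 and 1.82. At the foot of the list were Mal2, a protein of apical transport (94.6 against 40.7 FPKM, 1.2), and the transcription factor Grhl2 (13.5 against 4.59 FPKM, 1.37). In the E17 pair 27 of the 31 were higher (4.72% of all kept records there), and the median was 1.32.

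The promoters of leading epithelial genes often held the E-box CACCTG. Windows of 250 bases before each RefSeq start (GRCm38.p6) were searched on both strands for CACCTG, 1 of 7 motifs. The promoters below show it for 4 epithelial genes that were higher in TRAP, with Col3a1, the mesenchymal collagen gene with the largest depletion in its list, for contrast. They were chosen after the motif shares had been seen. Capitals mark CACCTG or its reverse complement.
Crb3, chr17:57061981-57062230, plus strand: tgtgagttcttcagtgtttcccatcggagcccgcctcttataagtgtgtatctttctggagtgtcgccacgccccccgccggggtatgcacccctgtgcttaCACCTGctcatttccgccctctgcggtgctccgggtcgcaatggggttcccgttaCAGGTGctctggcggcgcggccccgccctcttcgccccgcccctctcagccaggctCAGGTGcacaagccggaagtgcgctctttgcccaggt
Rab25, chr3:88548280-88548529, minus strand: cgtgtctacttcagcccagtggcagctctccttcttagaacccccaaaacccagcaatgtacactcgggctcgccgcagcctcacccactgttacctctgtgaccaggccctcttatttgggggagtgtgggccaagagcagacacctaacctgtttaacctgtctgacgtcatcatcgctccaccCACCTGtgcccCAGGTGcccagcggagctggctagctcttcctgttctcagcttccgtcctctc
Spint2, chr7:29281978-29282227, minus strand: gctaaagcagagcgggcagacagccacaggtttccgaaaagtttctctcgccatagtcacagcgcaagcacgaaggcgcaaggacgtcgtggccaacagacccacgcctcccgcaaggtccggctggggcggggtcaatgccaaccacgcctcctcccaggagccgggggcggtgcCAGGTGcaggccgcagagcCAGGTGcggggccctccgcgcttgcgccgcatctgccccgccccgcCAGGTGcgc
Epcam, chr17:87635729-87635978, plus strand: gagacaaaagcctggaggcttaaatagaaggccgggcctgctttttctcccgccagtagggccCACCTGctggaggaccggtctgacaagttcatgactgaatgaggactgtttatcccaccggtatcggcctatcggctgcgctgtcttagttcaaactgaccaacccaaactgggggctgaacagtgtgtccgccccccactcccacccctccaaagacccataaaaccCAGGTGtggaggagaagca
Col3a1, chr1:45311288-45311537, plus strand: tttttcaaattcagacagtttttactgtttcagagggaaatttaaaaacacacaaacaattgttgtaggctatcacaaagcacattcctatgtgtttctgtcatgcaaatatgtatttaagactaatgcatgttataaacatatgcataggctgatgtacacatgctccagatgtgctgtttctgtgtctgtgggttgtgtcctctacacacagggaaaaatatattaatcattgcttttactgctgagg

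Crb3 and Spint2 held 3 matches each in these windows, Rab25 and Epcam 2 each, and Col3a1 0. The Crb3 window lies 46 bases from the start of the deposited record, and the other 4 adjoin theirs. CACCTG was present in 15 of 24 promoters of the kept pan-epithelial genes (62.5%) and in 1 of 25 of the mesenchymal list (4%). It was present in 7 of 15 promoters of the 15 highest named genes (46.7%) and in 1 of 6 of the 15 lowest (16.7%). Promoters are counted by start: the 24 belong to 20 genes, the 25 to 19 and the 15 to 12. Crb3 and Wfdc2 each enter with overlapping windows that hold the motif. Across the data the share was 29.8% for records higher in TRAP (197 of 661 promoters), 12.3% for records lower (128 of 1039) and 14.4% for those within 2-fold. Of all 32851 promoters in the table, 17.2% held it. Of the 736 symbols with a higher record, 518 had a promoter in the table. Median GC content was 60.4%, 59.2% and 60.4% in these 3 classes, 62% for the pan-epithelial promoters and 57.2% for the mesenchymal ones. The 5 promoters shown differ more, from 35.2% in Col3a1 to 69.6% in Spint2. The ETS motif CCGGAAG was held by 6.66% of promoters of higher, 3.95% of lower and 15.1% of within-2-fold records, but by 5 of the 24 pan-epithelial promoters (20.8%). In the same order, the NKX2 core CAAGTG was held by 12.3%, 8.76% and 9.23%, and the forkhead motif TGTTTAC by 2.12%, 2.02% and 1.91%. For the SOX motif ACAATGG the shares were 2.12%, 2.12% and 1.55%, for the cyclic AMP response core TGACGT 6.51%, 6.83% and 10.6%, and for the GC box GGGCGGG 42.7%, 39.9% and 44.3%. Of the 24 pan-epithelial promoters, 5 held the cyclic AMP response core (20.8%), 4 the NKX2 core (16.7%) and 12 the GC box (50%). The forkhead and SOX motifs were in 0 of them. A match of letters is a description and not a bound site.

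The 15 highest named genes went beyond general epithelial markers. Kank1, an ankyrin-repeat regulator of the actin cytoskeleton, had 41.5 FPKM in TRAP and 5.35 in whole lung (2.74, interval 2.65 to 2.84). Mia, a small secreted protein first known from melanoma and cartilage, had 280.5 FPKM in TRAP and 42.7 in whole lung (2.69). Cytl1, a secreted protein also made in cartilage, had 48.2 against 7.4 FPKM (2.55), and Fam89a 66.1 against 10.5 FPKM (2.55). Among the others were Wfdc2, a secreted protease inhibitor of mucosal epithelia (508 against 90.9 FPKM), Gpx2, a glutathione peroxidase of epithelia (72.8 against 12.9 FPKM), and Dact2, a Dishevelled-binding regulator (27.8 against 4.48 FPKM). Cystm1 (58.2 against 9.49 FPKM), Cldn7, Rab25, Spint2, Crb3, Irx1, Irx3 and Sftpc completed the set. Every one of the 15 was also higher in the E17 pair, with differences of 1.49 to 2.28 there.

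**Figure D2:**
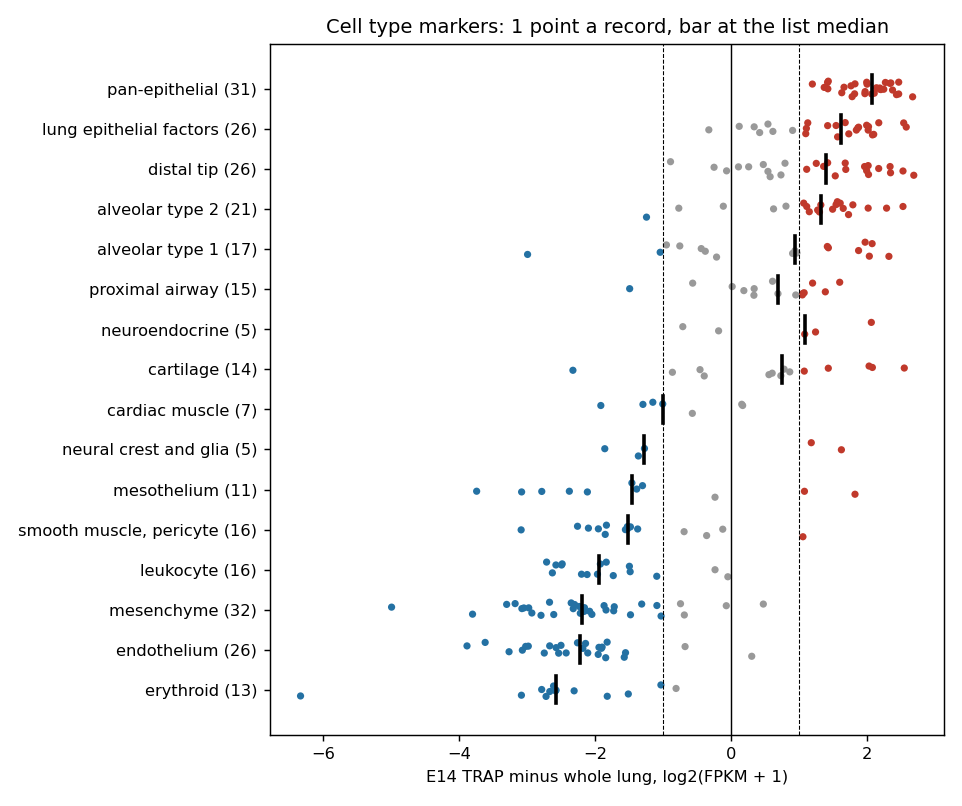
Difference of each kept record between E14 TRAP and whole lung, log2(FPKM + 1), for 16 cell type lists with the number of kept records in brackets. Each point is 1 record, red where at least 2-fold higher, blue where at least 2-fold lower and grey otherwise, and the black bar is the list median. Epithelial lists lie to the right, from 2.07 for pan-epithelial genes to 0.69 for airway genes, and mesenchymal, vascular and blood lists to the left.

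Transcription factors of the lung epithelium followed. Of 26 kept members, 19 were higher and 0 lower, against 6.10% and 9.36% of all kept records. The median was 1.62 (17 higher after rescaling). The 4 Iroquois homeobox genes of the list stood near the top. Irx3 had 253 FPKM in TRAP and 41.5 in whole lung (2.58), Irx1 had 312 against 52.9 FPKM (2.54), Irx5 had 79.0 against 16.7 FPKM (2.17) and Irx2 had 121 against 27.8 FPKM (2.08). Irx1 and Irx2 neighbour each other on chromosome 13 and Irx3 and Irx5 on chromosome 8, while the remaining member of each cluster, Irx4 and Irx6, had at most 0.145 FPKM in either library. Nkx2-1, which specifies lung identity, had 315 FPKM in TRAP and 78.3 in whole lung (2.00), and the FGF-induced Etv5 had 343 against 83.8 FPKM (2.02). Id2, an inhibitor of basic helix-loop-helix factors, had 336 against 104 FPKM (1.68). Etv4, which acts beside Etv5 in the FGF response, was within 2-fold at 0.54 (21.1 against 14.1 FPKM), as was Foxp1 (0.42). Sox2, which marks the stalks and airways, was nearly even at 12.8 against 9.90 FPKM (0.34), and Sox11, expressed in many embryonic cells, stood at -0.32. Grhl1, Grhl3, Hnf4a and Tfcp2l1 fell below the filter.

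Distal tip genes ranged from strongly enriched members to members near or below the organ's own level. Of 26 kept members 16 were higher and 0 lower, against 6.10% and 9.36% of all kept records. The median was 1.39 (15 higher after rescaling). Beside Mia and Sftpc the leaders were Rnf43, Wnt7b and Clu. Rnf43, a Wnt feedback ubiquitin ligase, had 41.3 against 7.32 FPKM (2.35). Wnt7b, the Wnt ligand of the epithelium, had 307 against 59.9 FPKM (2.34), and Clu, the secreted chaperone clusterin, 129 against 27.8 FPKM (2.17). Genes at the organ's level included Dlk1, an imprinted Notch-related ligand (193 against 161 FPKM, 0.26), Dusp6, a phosphatase induced by ERK signalling (23.1 against 24.2 FPKM, -0.06), and Axin2, a Wnt target active in several lung cell types (10.9 against 13.1 FPKM, -0.25). Il1r1 was the lowest at -0.89, with 0.670 against 2.09 FPKM. Lin28b and Tubb3 were below the filter. The list median at E17 was 1.38, where 18 members were higher.

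Genes of alveolar type 2 cells, the surfactant-making cells of the later lung, were mostly higher in TRAP. Of 21 kept members 16 were higher and 1 lower, against 6.10% and 9.36% of all kept records. The median was 1.32, with the same counts after rescaling (9 higher with a pseudocount of 5 FPKM). Sftpc, which encodes surfactant protein C, had 399.6 FPKM in TRAP and 68.4 in whole lung (2.53, interval 2.44 to 2.63). The E16 TRAP libraries had 3788 and 4487 FPKM and the E17 pair 11835 and 3133, far above the E14 level. Sftpb, the surfactant protein B gene, had 83.7 against 16.3 FPKM (2.29), the secreted Lgi3 25.3 against 6.59 FPKM (1.79) and Ctsh, a cathepsin that processes surfactant protein B, 19.98 against 5.33 FPKM (1.73). Lpcat1, an enzyme of surfactant lipid synthesis, was within 2-fold (0.81), and so were Chil1, the desaturase gene Scd1 and the lysozyme gene Lyz2, which macrophages also express (-0.77). The single lower member was Il33, an alarmin cytokine, at 0.303 against 2.08 FPKM (-1.24). Slc34a2 and S100g were below the filter.

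Genes of alveolar type 1 cells, the flat cells of gas exchange, were split. Of 17 kept members 7 were higher and 2 lower, against 6.10% and 9.36% of all kept records, with a median of 0.94. Ager (44.9 against 8.18 FPKM, 2.32), Igfbp2, an IGF-binding protein (625 against 148 FPKM, 2.08), Gprc5a, an orphan receptor (41.5 against 9.36 FPKM, 2.04), Cldn18, a lung claudin (1.97), and Hopx, a homeodomain cofactor (1.88), led the list. Cav1, the main protein of caveolae and abundant in endothelium, was far lower at 6.17 against 55.9 FPKM (-2.99), and Timp3, a protease inhibitor of the matrix, stood at -1.04. Aqp5, Clic5 and Sec14l3, 3 of the 20 listed, were below the filter.

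Airway genes lay between the epithelial groups and the organ. Of 15 kept members 6 were higher and 1 lower, against 6.10% and 9.36% of all kept records, with a median of 0.69. After rescaling 3 were higher. The club cell secretoglobin Scgb1a1 had 399.8 FPKM in TRAP and 173 in whole lung (1.2), and its relative Scgb3a2 had 91.5 against 46.8 FPKM (0.95), just under 2-fold. Krt15, a keratin of basal and airway cells, had 7.33 against 1.75 FPKM (1.60), and Foxa3, a forkhead factor of endoderm, 5.04 against 1.31 FPKM (1.39). The detoxifying enzymes Cyp2f2 and Aldh1a7 stood at 1.08 and 1.06. Gsto1, a glutathione transferase expressed in many cells, was the lower member at -1.49 (13.1 against 38.6 FPKM). The cilia genes Rfx2, Rfx3 and Tekt1 lay between -0.56 and 0.19. The basal cell genes Trp63 and Krt5 were below the filter, with Trp63 listed at 0 in TRAP. Of 17 neuroendocrine genes 12 fell below the filter, Chga and Calca among them. Among the 5 kept, Uchl1, a ubiquitin hydrolase of neurons and progenitors (143 against 33.5 FPKM, 2.06), Ddc, the aromatic amino acid decarboxylase (1.24), and Nnat (1.08) were higher and 0 were lower.

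The 15 lowest named genes came from several cell types. Beside 4 collagen and basement membrane genes (Col3a1, Col1a1, Col5a2 and Nid2) they held the endothelial genes Aplnr and Cdh5, the guidance receptor gene Epha3 and the mesenchymal repressor gene Snai2. Gucy1a3, a subunit of the nitric oxide receptor, had 2.13 against 34.7 FPKM (-3.51), and Sparcl1, a secreted matrix-associated protein, 7.01 against 81.3 FPKM (-3.36). Aldh1a2, the noncoding Rian and Rmrp, the globin Hbb-bs and Eif3j1 completed the set. At E17 14 of the 15 were lower as well, and Eif3j1 was the exception (-5.12 at E14 and 0.84 at E17).

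Mesenchymal genes lay on the lung side. Of 32 kept members 28 were lower, against 9.36% of all kept records, and 0 were higher, with a median of -2.19. A member's TRAP level was, at the median, 18.6% of its level in whole lung, and the summed level was 587 against 2296 FPKM. Col3a1, a fibrillar collagen, had 9.48 FPKM in TRAP and 332 in whole lung (-4.99, interval -5.10 to -4.89). Col1a1 had 18.7 against 273 FPKM (-3.80), the proteoglycan gene Dcn 1.44 against 21.0 FPKM (-3.17) and Tbx4, a T-box factor of lung mesenchyme, 6.63 against 63.2 FPKM (-3.07). Members near the organ's level were Fbln1, a matrix glycoprotein (78.8 against 56.3 FPKM, 0.48), the homeobox gene Prrx1 (-0.07), Vim, the intermediate filament of mesenchyme and of many cultured cells (226 against 364 FPKM, -0.68), and the cytoskeletal linker Macf1 (-0.74). Thy1 and Twist1 were below the filter. None of the kept members was listed at 0 in TRAP.

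Smooth muscle and pericyte genes were lower too, with 12 of 16 kept members, against 9.36% of all kept records. Their median was -1.52 and their summed level 133 against 423 FPKM. Acta2, smooth muscle actin, had 38.3 against 151 FPKM (-1.95), its relative Actg2 15.3 against 76.9 FPKM (-2.26) and the pericyte gene Rgs5 0.732 against 13.7 FPKM (-3.08). Ano1, a calcium-activated chloride channel also found in epithelia, was the exception at 20.4 against 9.29 FPKM (1.06; within 2-fold after rescaling). Endothelial genes had a median of -2.22, and 24 of 26 kept members were lower. Their median TRAP level was 10.8% of that in whole lung, and the summed level was 111 against 589 FPKM. Cdh5, the cadherin of endothelial junctions, had 2.13 against 37.3 FPKM (-3.61), the apelin receptor gene Aplnr 1.57 against 36.9 FPKM (-3.88), Plvap, of fenestral diaphragms, 3.38 against 41.0 FPKM (-3.26) and the VEGF receptor gene Kdr 0.739 against 13.6 FPKM (-3.07). Prox1, a factor of lymphatic endothelium that other cells also express, was at 1.23 against 0.8 FPKM (0.31), and Egfl7 was within 2-fold (-0.67).

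Blood cell genes were lower with some RNA left, where 9.36% of all kept records were lower. Of 16 kept leukocyte genes 14 were lower (7 with a pseudocount of 5 FPKM, 5 at a mean of at least 5 FPKM), with a median of -1.94, and the complement genes C1qa, C1qb and C1qc of macrophages stood at -2.71, -2.49 and -2.57. The summed level of that list was 25.8 against 122 FPKM. Of 13 kept erythroid records 12 were lower and 0 higher, with a median of -2.58 and a summed level of 6605 against 25827 FPKM. The erythroid factor Gata1 and the leukocyte integrin Itgam, both below the filter, were listed at 0 in TRAP. Globin RNA was still abundant in TRAP. The embryonic beta-like globin Hbb-y had 1294 FPKM in TRAP and 8905 in whole lung (-2.78). It was the most abundant kept record of whole lung, with predicted models, pseudogenes, Rik clones and small RNAs passed over. The 4 records of Hba-a1 and Hba-a2 summed to 4369 FPKM in TRAP and 10304 in whole lung (-1.24), and Hbb-b1, Hbb-bs and Hbb-bt to 611 and 4617 (-2.92). Globin genes have near-identical copies, so how fragments were divided between them is uncertain: Hbb-bs alone had 0.00621 and 79.8 FPKM, the lowest difference of all kept records (-6.33). The part that RNA of these other cell types had in other differences was not tested.

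Smaller compartments gave mixed counts, to be set beside 6.10% higher and 9.36% lower among all kept records. Of 11 kept mesothelial genes 8 were lower (5 with a pseudocount of 5 FPKM, 4 at a mean of at least 5 FPKM) and 2 higher, with a median of -1.46. Aldh1a2, which makes retinoic acid, had 1.26 against 29.1 FPKM (-3.74), the uroplakin gene Upk3b 2.44 against 28.0 FPKM (-3.08) and Wt1, a mesothelial transcription factor, 0.601 against 5.91 FPKM (-2.11). The exceptions were Krt19, which epithelium also makes (1.82), and Msln (2.34 against 0.579 FPKM, 1.08). Of 5 kept neural crest and glial genes, Erbb3 (1.62) and Ret (1.18), receptors that epithelia can also express, were higher, while Gap43, Fabp7 and Stmn2 were lower. Sox10 and 12 other listed genes were below the filter. Sox9 also directs cartilage, and of 14 kept cartilage genes 5 were higher (3 with a pseudocount of 5 FPKM or at a mean of at least 5 FPKM) and 1 lower, with a median of 0.76. Higher were Cytl1, the type IX collagen chains Col9a3 (12 against 2.06 FPKM, 2.08) and Col9a1 (1.43), Matn4, a matrilin of the matrix (41.1 against 9.30 FPKM, 2.03), and Lect1 (1.08). Col2a1, the main collagen of cartilage, had 24.4 FPKM in TRAP and 15.7 in whole lung, within 2-fold (0.61), and Hapln1, a link protein, was lower (1.5 against 11.5 FPKM, -2.32). Acan and Matn1, both defining genes of cartilage, were at or near 0 in both libraries. Of 7 kept cardiac genes 4 were lower and 0 higher, led by Actc1 (6.37 against 26.7 FPKM, -1.91). Of 26 records of other endodermal organs 23 were below the filter, and Cym, the stomach protease chymosin, was the highest of the rest (20.7 against 3.68 FPKM, 2.21).

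Signals were then read by role, ligands first. Of 6 kept FGF ligand genes 0 were higher and 1 was lower (2 after rescaling): Fgf10, the mesenchymal ligand of the tips, had 1.78 FPKM in TRAP and 11.4 in whole lung (-2.16, interval -2.37 to -1.97). Fgf9, made by mesothelium and epithelium, was just within 2-fold at 0.984 against 2.77 FPKM (-0.93). Of all kept records 6.10% were higher and 9.36% lower, so such small counts say little of the family. Among 20 kept FGF receptors and effectors 5 were higher and 4 lower (3 higher after rescaling), with a median of 0.19. Fgfr2, the receptor for FGF10, had 91.8 FPKM in TRAP and 31.1 in whole lung (1.53), Fgfr4 20.5 against 5.22 FPKM (1.79) and the decoy-like receptor Fgfrl1 58.9 against 26.6 FPKM (1.12). The feedback inhibitors divided: Spry2 was higher (33.8 against 15.1 FPKM, 1.11), whereas Spry4 (0.757 against 4.60 FPKM, -1.67), Il17rd (-1.59) and Shisa2 (-1.50) were lower. The ETS factor Etv1 was lower as well (0.885 against 6.96 FPKM, -2.08), opposite to Etv5.

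Wnt ligands sorted by gene. Of 11 kept, Wnt7b and Wnt6 (4.08 against 1.17 FPKM, 1.23) were higher. Wnt2, a Wnt ligand of the mesenchyme, had 10.6 FPKM in TRAP and 72.4 in whole lung (-2.67), and Wnt2b 1.24 against 9.26 FPKM (-2.19). The R-spondins Rspo1 and Rspo2, which boost Wnt signalling, stood at -1.46 and -1.27. Of 32 kept receptors, inhibitors and targets 2 were higher and 10 lower (2 and 11 after rescaling), against 6.10% and 9.36% of all kept records. The lower count was 3 with a pseudocount of 5 FPKM and 4 at a mean of at least 5 FPKM. The median was -0.26, and 0.11 over members with at least 5 FPKM. Rnf43 and Sp5, a direct target of beta-catenin (31.8 against 9.42 FPKM, 1.65), were the higher pair. The secreted inhibitors Sfrp1 (1.93 against 23.5 FPKM, -3.06), Sfrp2 (9.34 against 82.6 FPKM, -3.02) and Dkk3 (-1.76) were among the lowest, with the R-spondin receptor Lgr4 at 0.375 against 3.16 FPKM (-1.6). The Wnt receptor Fzd2 was the most abundant frizzled in TRAP at 107 against 54.4 FPKM, just within 2-fold (0.96).

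BMP and TGF-beta genes mostly stayed within 2-fold, with 4 of 40 higher and 7 lower (4 and 9 after rescaling, and 11 lower by fragments inferred from the bounds), against 6.10% and 9.36% of all kept records. The higher ones were 3 ligands, Bmp4 (116 against 35.1 FPKM, 1.69), Tgfb2 (90.7 against 26.2 FPKM, 1.75) and Bmp7 (23.9 against 8.5 FPKM, 1.39), and the target Id2. The inhibitory Smad6, a BMP feedback gene, was just within 2-fold (0.90). Among the lower ones were Acvrl1, a receptor of endothelium (-2.34), Bmper, a secreted BMP regulator (-2.45), Tgfb1 (8.51 against 22.7 FPKM, -1.32), and Id3 (102 against 210.2 FPKM, -1.04) and Id4 (-1.17), relatives of Id2. Of 13 kept members of the hedgehog pathway the ligand gene Shh alone was higher (99.2 against 24.7 FPKM, 1.97) and 6 were lower. Among the lower ones were the transcription factors Gli1 (5.69 against 30.3 FPKM, -2.23) and Gli2 (-2.02), the co-receptors Boc (-2.33) and Gas1 (-2.16) and the antagonist Hhip (-1.52). The receptor Ptch1 and the transducer Smo stood at -0.63 and -0.23.

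**Figure D3:**
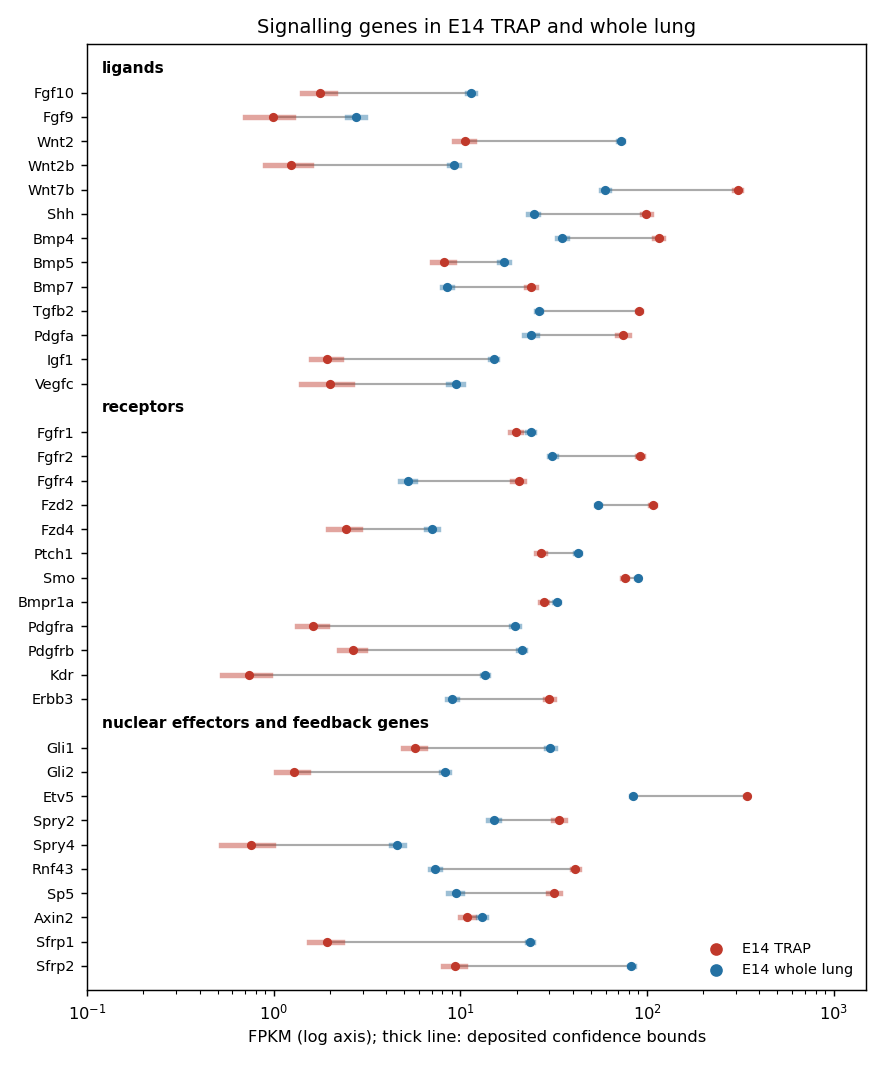
FPKM on a log axis of 35 signalling genes in E14 TRAP (red) and E14 whole lung (blue), 1 library each, grouped as ligands, receptors, and nuclear effectors and feedback genes. Thick lines are the deposited confidence bounds, which cover counting error. Wnt7b, Shh, Bmp4, Fgfr2 and Etv5 lie higher in TRAP, and Fgf10, Wnt2, Gli1, Pdgfra and Sfrp1 lie higher in whole lung.

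Among paracrine growth factors, the PDGF ligand genes Pdgfa (74.8 against 23.8 FPKM, 1.61) and Pdgfc (1.23) were higher. Pdgfb was within 2-fold (13.7 against 16.9 FPKM, -0.28) and Pdgfd was below the filter (0.394 against 0.813 FPKM). The receptors Pdgfra (1.62 against 19.6 FPKM, -2.97) and Pdgfrb (-2.60) were lower. Vegfa, the main vascular growth factor, was within 2-fold at 20.9 against 27.4 FPKM (-0.38), and Vegfc, of lymphatic growth, was lower (-1.79). In all, 2 of 14 kept VEGF and PDGF genes were higher and 7 lower (4 lower with a pseudocount of 5 FPKM). In the IGF and ERBB group 3 of 17 were higher and 5 lower (2 lower with a pseudocount of 5 FPKM): Igfbp2, Erbb3 (30.02 against 9.06 FPKM) and the ligand Tgfa (6.58 against 2.31 FPKM, 1.2) against Igf1 (1.94 against 15.1 FPKM, -2.45), Nrg2, Igfbp3, Igfbp4 and Igf2r. Igf2, abundant in both libraries, stood at 427 against 682 FPKM (-0.68). Among 18 kept Notch genes 1 was higher, the Hes family member Hes6 (65.0 against 24.4 FPKM, 1.38), and 6 were lower, among them the target Heyl (-2.17), the receptor-modifying enzyme Mfng (-1.92) and Dll4, a ligand of endothelium (-1.21). The shares of all kept records were 6.10% and 9.36%, and 2 Notch genes were lower with a pseudocount of 5 FPKM or at a mean of at least 5 FPKM. In the retinoid group Rarg, a retinoic acid receptor, was the single higher member of 15 (59.4 against 27.0 FPKM, 1.11), and it fell within 2-fold after rescaling. Aldh1a2, Rdh10, which makes retinal (-1.45), and Crabp1 (-1.14) were lower.

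Guidance genes split evenly, with 9 of 43 higher and 9 lower, against 6.10% and 9.36% of all kept records. The counts were 8 and 10 after rescaling, and 4 were higher with a pseudocount of 5 FPKM. Higher were ligands and receptors such as Sema4d (24.0 against 6.04 FPKM, 1.83), Sema3b (1.68), the netrin gene Ntn1 (27.6 against 8.45 FPKM, 1.60), and the ephrin receptor Epha1 (1.57) with the ephrin Efna4 (83.3 against 32.9 FPKM). Among the lower ones were Epha3 (0.816 against 23.8 FPKM, -3.77), the netrin receptor Unc5c (0.986 against 18.8 FPKM, -3.32), the semaphorin receptor Plxnd1 of endothelium (8.56 against 60.5 FPKM, -2.69), Sema3a (-2.53), Slit3 (-2.24) and the Slit receptors Robo1, Robo2 and Robo4.

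Cell junction families divided by member, where 6.10% of all kept records were higher and 9.36% lower. Of 12 kept claudins, the strand proteins of tight junctions, 7 were higher and 3 lower. Cldn6 was the most abundant in TRAP (451 against 107 FPKM, 2.07), followed by Cldn3 (245 against 46.4 FPKM) and Cldn7 (205 against 37.2 FPKM), and Cldn4, Cldn18, Cldn10 and Cldn9 were higher too. After rescaling 6 were higher. Cldn5, the claudin of endothelium, was lower (11.1 against 68.7 FPKM, -2.53), with Cldn1 and Cldn15. Of 7 kept keratins 6 were higher: Krt8 (202 against 38.7 FPKM), Krt18 (206 against 42.5 FPKM) and Krt7 (181 against 45.4 FPKM) formed the abundant set, with Krt19, Krt15 and Krt23 below them, while Krt10 stood at 0.90. Cadherins divided likewise among 11 kept members. Cdh1, the epithelial cadherin (72.7 against 20.7 FPKM, 1.77), Cdh3 (46.7 against 10.7 FPKM, 2.02), Cdh16 (2.11) and Cdh8 (1.32) were higher. Cdh11, a mesenchymal cadherin (9.62 against 103 FPKM, -3.29), Cdh2 (-2.04), Cdh5, Pcdh1 and Pcdh18 were lower.

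The basement membrane, laid down by epithelium and its neighbours, was mixed gene by gene. Of 28 kept members 11 were higher and 5 lower, with a median of 0.54 and the same counts after rescaling (7 higher with a pseudocount of 5 FPKM). The epithelial laminin chains Lamb3 (21.7 against 4.10 FPKM, 2.16) and Lama3 (1.39) were higher, as were Col18a1 (179 against 49.3 FPKM, 1.84), Col4a6 (11.1 against 2.36 FPKM, 1.85), Smoc2 (1.79) and Tinag (1.88). The common chains Lamc1 (0.59) and Col4a1 (0.33) were within 2-fold. The nidogens, which link laminin to type IV collagen, were far lower: Nid1 had 2.07 against 28.4 FPKM (-3.26) and Nid2 1.52 against 25.2 FPKM (-3.37). Lama4, a vascular laminin chain (1.33 against 16.8 FPKM, -2.93), Frem1 (-2.48) and Col15a1 (1.32 against 9.25 FPKM, -2.15) were also lower. Of 15 kept interstitial collagens 14 were lower, Col5a2 among them (3.13 against 52.9 FPKM, -3.71), with Col27a1 as the exception (26.1 against 12.7 FPKM, 0.98). Among 13 kept integrins 1 was higher and 6 were lower, against 6.10% and 9.36% of all kept records. The higher one was Itga3, a laminin-binding integrin (42.4 against 14.8 FPKM, 1.46). Itga8, a mesenchymal integrin, had 0.837 against 13.0 FPKM (-2.93), and the common beta chain Itgb1 was near even at 91.0 against 109 FPKM (-0.26).

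**Figure D4:**
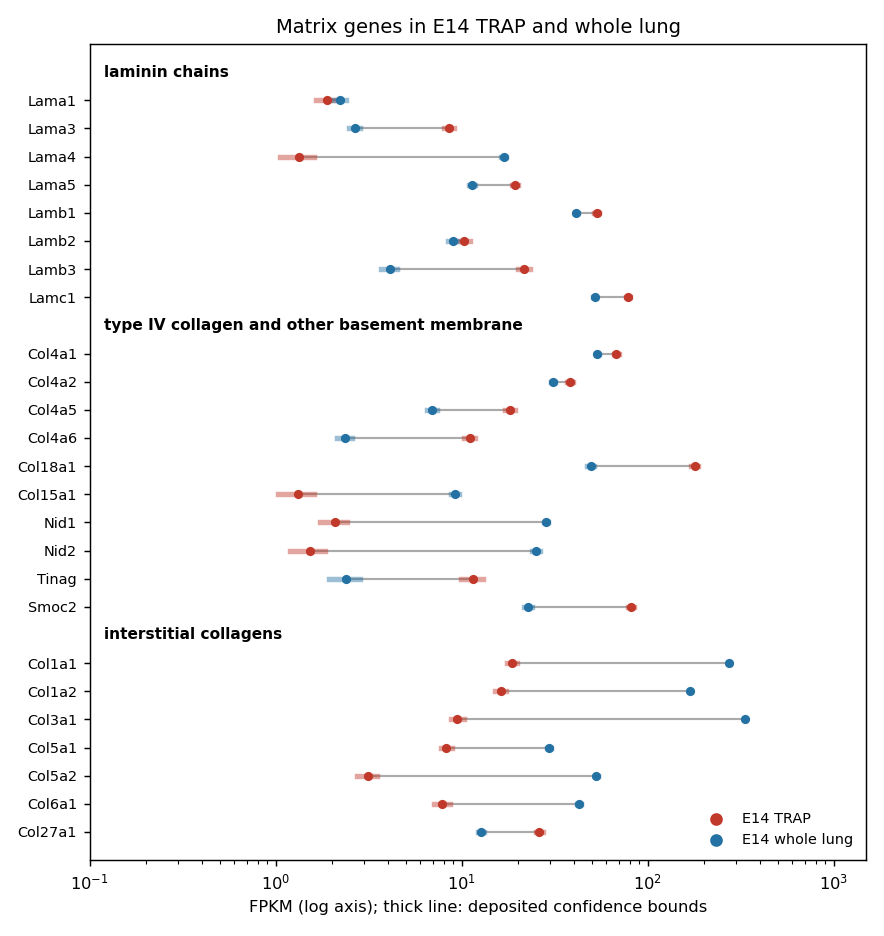
FPKM on a log axis of 25 matrix genes in E14 TRAP (red) and E14 whole lung (blue), 1 library each. Thick lines are the deposited confidence bounds, which cover counting error. The laminin chains Lama3 and Lamb3 lie higher in TRAP, the nidogens and the interstitial collagens other than Col27a1 lie higher in whole lung, and Col4a1 and Lamb2 lie close together.

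Hox genes were on the lung side without exception in direction. Of 15 kept, 14 were lower and all 15 were below 0, with a median of -1.87 and a median TRAP level of 15.8% of whole lung. Hoxa5, which patterns the lung and its mesenchyme, had 10.6 FPKM in TRAP and 104 in whole lung (-3.18, interval -3.37 to -3.00). Hoxb5 had 11.5 against 99.4 FPKM (-3.01) and Hoxb6 4.24 against 38.4 FPKM (-2.91), and Hoxc4 was within 2-fold near the filter (0.793 against 2.29 FPKM, -0.88). In the Sox family Sox9 was the single higher member of 12 kept, where 6.10% of all kept records were higher and 9.36% lower. Sox7, Sox17 and Sox18, factors of endothelium, were lower (-2.42, -1.95 and -2.57), and Sox4 (172 against 112 FPKM) and Sox12 (73.8 against 82.9 FPKM), the most abundant relatives in TRAP, were within 2-fold.

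Imprinted genes leaned to the lung side, with 8 of 20 lower and 1 higher, against 9.36% and 6.10% of all kept records. The noncoding H19 had 143 against 1357 FPKM (-3.24), the growth regulator Plagl1 13.4 against 119 FPKM (-3.07) and Mest 54.6 against 299 FPKM (-2.43). Nnat was the higher one (1.08; within 2-fold after rescaling), and Gnas, the most abundant member in TRAP, was even (1462 against 1246 FPKM). By fragments inferred from the bounds, the list median turned from -0.61 to 0.21. Of 18 kept noncoding RNAs 11 were lower and 0 higher, with a median of -1.27. Rmrp, the RNA of a nuclear and mitochondrial ribonuclease, was listed at 0 in TRAP against 28.8 FPKM, Rian had 4.09 against 90.3 FPKM (-4.16) and Meg3 4.81 against 40.2 FPKM (-2.83). The snoRNA host genes Snhg1 (-0.23) and Snhg12 (-0.40) were within 2-fold, and Peg13 stood above 0 (0.89).

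Genes of general cell function stayed close to the organ. Of 33 kept cell cycle genes 0 were higher and 1 was lower (2 after rescaling), against 6.10% and 9.36% of all kept records. Their median was 0.22. The lower one was Mki67, the proliferation antigen (7.44 against 16.1 FPKM, -1.02). Of the cyclins, Ccnd1 (168 against 87.1 FPKM, 0.94) and Ccnd2 (44.7 against 88.9 FPKM, -0.98) lay at opposite edges of the list, both just within 2-fold. Of 49 cytosolic ribosomal protein genes 48 were within 2-fold and the median was -0.09. After rescaling 2 were lower. Rplp0 (1304 against 2462 FPKM, -0.92) and Rpsa (-0.89) were the lowest. Rps27 was called higher (96.2 against 41.6 FPKM, 1.19) with a wide interval of 0.79 to 1.59, which covers counting error only. In the 2 E16 wild-type TRAP libraries it had 9.41 and 346 FPKM, so its level differed widely between libraries of one group. Kept records were ranked by level with predicted models, pseudogenes, Rik clones and small RNAs passed over. The most abundant of these in TRAP was the ribosomal gene Rpl41, at 8018 against 7903 FPKM (0.02). Next were Ptma, a small nuclear protein gene (6060.1 against 3548 FPKM, 0.77), and the elongation factor gene Eef1a1 (4193 against 5611 FPKM, -0.42). Mif, a cytokine gene and the single higher record among the 10 most abundant so ranked in TRAP, had 3078 against 1406 FPKM (1.13).

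Mitochondrial and glycolytic genes were shifted by a small amount. All 25 nuclear-encoded respiratory chain genes were above 0 (24 after rescaling) and none reached 2-fold, with a median of 0.46, or 0.33 rescaled, when the median of all kept records was -0.08. Atp5d, of the ATP synthase, led at 529.9 against 297 FPKM (0.84). Of 20 kept glycolysis and hypoxia genes 2 were higher and 0 lower, with a median of 0.48: Gapdh (2975 against 1386 FPKM, 1.10) and the hexokinase gene Hk2 (27.1 against 12.3 FPKM, 1.08). After rescaling the counts became 0 higher and 2 lower. For this list and the next ones, the shares of all kept records before rescaling were 6.10% higher and 9.36% lower. Of 35 genes of entry into and folding in the endoplasmic reticulum 2 were lower and 0 higher, and the median of 0.12 turned to -0.01 when rescaled. The lower ones were Creb3l1, a membrane-bound transcription factor of secretory cells (7.64 against 39.4 FPKM, -2.22), and the retrieval receptor gene Kdelr3 (4.44 against 22 FPKM, -2.08). Of 24 kept histone records 1 was higher, Hist2h4 (3.09 against 0.639 FPKM, 1.32), and the median was 0.54.

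Of 26 glycogen and lipid genes 2 were higher and 2 lower, against 6.10% and 9.36% of all kept records. Higher were Fasn, fatty acid synthase (73.0 against 24.0 FPKM, 1.56), and Pygl, glycogen phosphorylase (19.5 against 8.58 FPKM, 1.10; within 2-fold after rescaling). Gyg, glycogenin, the primer of glycogen, was lower (28.5 against 179 FPKM, -2.61), with the elongase Elovl6 (-1.28). Of 14 kept genes of fluid transport 4 were higher and 1 lower. Clic6 (33.4 against 7.88 FPKM, 1.95), the sodium pump subunit Atp1b1 (25.7 against 8.39 FPKM, 1.51), the scaffold Slc9a3r1 (79.2 against 27.3 FPKM, 1.5) and Ano1 were higher, and Aqp1, a water channel of vessels, was lower (2.68 against 9.50 FPKM, -1.51). The chloride channel Cftr was within 2-fold (3.48 against 2.10 FPKM, 0.53). Among 18 kept immediate early genes Jun stood alone as higher, at 160.2 FPKM in TRAP and 37.8 in whole lung (2.05, interval 1.99 to 2.12), and it had 160.3 and 41.8 FPKM in the E17 pair. Its family members Jund (0.82) and Junb, and Atf3, were within 2-fold, and Fos was below the filter. Klf2 (1.70 against 9.97 FPKM, -2.02), Egr1 (-1.74) and Myc (9.03 against 32.1 FPKM, -1.72) were among the 5 lower members (2 with a pseudocount of 5 FPKM).

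The E17 pair, which shares no library with the E14 pair, gave the same direction for most of these records. It is another stage and not a replicate. Of the 738 records higher at E14, 418 were also higher at E17 (56.6% of the E14 records and 73.2% of the 571 at E17, which were 4.72% of all kept records). Of the 1133 lower, 804 were also lower at E17 (71.0%, and 80.6% of the 998 at E17, 8.25% of all). In all, 713 of the higher records were above 0 at E17 and 23 were below 0, and 1114 of the lower were below 0 and 18 above. Across the kept records the differences at the stages had a Pearson r of 0.869 and a Spearman rho of 0.851, a description across genes, which share libraries and are not independent. The higher records had a median of 1.35 at E14 and 1.08 at E17, and the lower records -1.50 and -1.46. Only the E14 side of these medians was selected on.

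**Figure D5:**
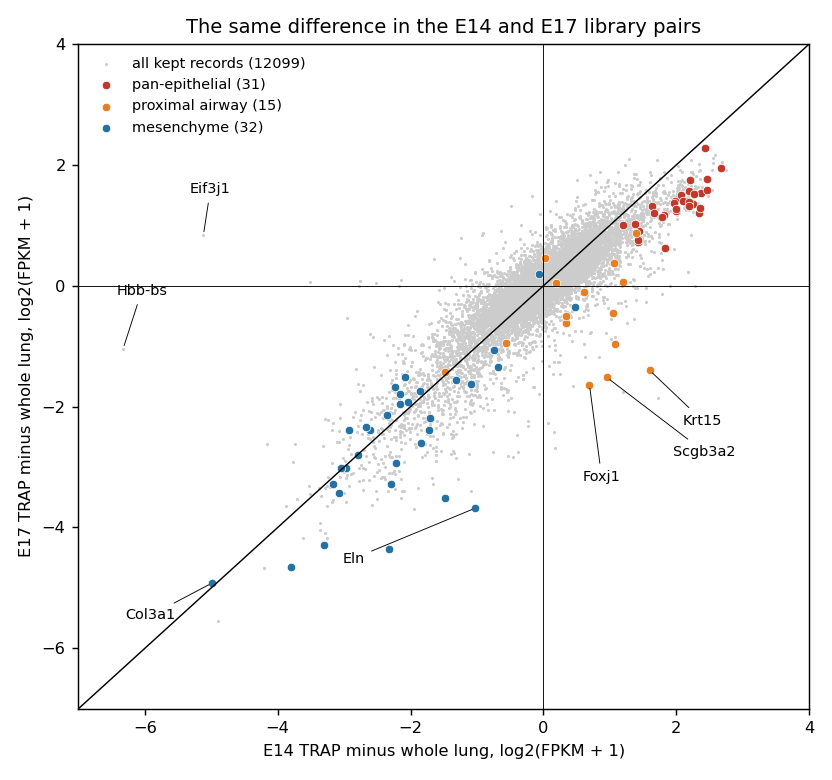
Difference between TRAP and whole lung, log2(FPKM + 1), at E17 (vertical) against E14 (horizontal) for the 12099 kept records, 1 library for each group and stage. The diagonal marks equal differences. Pan-epithelial genes lie below the diagonal on the right, and the airway genes Krt15, Scgb3a2 and Foxj1 lie right of 0 at E14 and below 0 at E17.

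Airway genes gave the largest shift among the epithelial lists, from a median of 0.69 at E14 to -0.50 at E17. Scgb3a2 had 91.5 and 46.8 FPKM at E14 and 106 and 304 at E17 (0.95 at E14 and -1.52 at E17). Its level in TRAP was thus similar at the stages, while its level in whole lung was far higher at E17. Krt15 went from 7.33 and 1.75 to 2.33 and 7.80 FPKM (1.60 at E14 and -1.40 at E17). Foxj1, the regulator of motile cilia, had 2.25 and 1.01 FPKM at E14 and 4.60 and 16.4 at E17 (0.69 at E14 and -1.64 at E17), and was not called at E14. Scgb1a1 stood at 1.2 at E14 and 0.06 at E17 and Cyp2f2 at 1.08 at E14 and -0.96 at E17. The difference between the stages was not tested, since each has 1 library a group.

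Other wide gaps between the stages were found beyond the airway list. Eln, elastin, was 30.9 and 64.0 FPKM at E14 and 24.1 and 321 at E17 (-1.03 at E14 and -3.68 at E17), with most of the gap in whole lung. Sema3a (-2.53 at E14 and 0.05 at E17) and Calb2, a calcium-binding protein (-2.76 at E14 and 0.08 at E17), were lower in TRAP at E14 and even at E17. Hbb-y was lower at E14 and even at E17, when its level in whole lung had dropped from 8905 to 151 FPKM. Predicted models, pseudogenes, Rik clones and small RNAs were passed over here. Of the 8622 other kept records that reached 5 FPKM in TRAP or whole lung at each stage, 3 had opposite calls at the stages. They were Krt15, Rps27 and Eif3j2. Rps27 had 9.41 and 346 FPKM in the 2 E16 wild-type TRAP libraries, a wide gap within one group. Eif3j1 and Eif3j2, records of a translation initiation subunit, overlap on chromosome 2 (122028580 to 122053632) and are near-identical, so the division of fragments is uncertain. Eif3j1 had 0.115 and 37.8 FPKM at E14 and Eif3j2 55.7 and 16.1, and their sums were 55.8 in TRAP and 53.8 in whole lung.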

How the data were processed

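RNA of 2 E14 libraries, 1 of TRAP and 1 of whole lung, was compared, with the E17 pair and 2 wild-type E16 TRAP libraries beside them. The authors deposited 1 table a library with FPKM and its confidence bounds for each gene record on mm10. TopHat2 2.0.14, Bowtie2 2.2.3, Cufflinks 2.2.1 and Cuffnorm are named, without roles, per the submitters' processing notes. The labels' protocols give NEBNext Ultra libraries with 300 bp size selection. Library totals are not listed, so fragments were computed from the bounds, taken as 2 standard errors. No source used here states whether counting used the strand, so overlapping genes share an uncertain division of reads.

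Records were matched on name, locus and start site group. Kept were those with a mean of at least 1 FPKM and a span of at least 200 bases, which left out 42 short records. Differences are of log2(FPKM + 1), and intervals combine the bounds of both libraries. With 1 library a group no test was run. Members and the 47 gene lists (1033 genes, 1022 with a record, 819 kept member records) were chosen with earlier results of these data known. Genes were named by rule: Sox9; the 15 highest and 15 lowest records that reached 5 FPKM in a library and had bounds apart; any member of lists with up to 12 kept records; in longer lists the 5 highest, the 5 lowest, the 3 most abundant in TRAP and members called against the list median; the 10 most abundant records of each library; and records with opposite calls or the 10 largest gaps between stages, among those that reached 5 FPKM at each stage. Named outside it, after their values were seen, were Atf3, Col4a1, Esrp1, Esrp2, Foxj1, Junb, Lama3, Lamb2, Pdgfb, Pdgfd and the Iroquois genes below the filter. Symbols of predicted models, pseudogenes, Rik clones, microRNA and snoRNA records were passed over in ranking extremes, levels and stage gaps. Some list members are counted but not reported by name here. Genes plotted for signalling and matrix were chosen for their roles, some after their values were seen. Promoters came from RefSeq (GRCm38.p6).

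The calls were tested on simulated data of 12093 records, where 50 of 50 records made 4-fold higher, 45 of 50 made 3-fold higher, 48 of 50 made 3-fold lower and 49 of 50 made 4-fold lower were called, with 1 of 11893 unchanged records. The simulation held counting error and a dispersion of 0.01, so it does not show how much separate libraries of one group would differ. Alternatives changed the pseudocount, filters, library scale, call rule, matching and fold. Python 3.11.15 with numpy 2.4.6, pandas 2.3.3, scipy 1.17.1 and matplotlib 3.10.9 was used.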

Additional observations from a re-analysis of the deposited data

Results flagged for a closer look

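Among members of the gene lists, records were flagged whose TRAP and whole lung difference had opposite directions at E14 and E17. Their intervals were clear of 0 at both stages, and the difference was at least 2-fold at E14 or E17. Outside the lists, a record was added only where it was called in opposite directions at the stages. The gap between stages was not tested, since each group has 1 library. The gap (E14 minus E17) was 3.0 for Krt15, 2.47 for Scgb3a2, 2.33 for Foxj1, 2.04 for Cyp2f2 and 1.51 for the carbonyl reductase gene Cbr2. All are airway genes and lay above 0 at E14, with Scgb3a2 and Foxj1 within 2-fold. The gap was 1.92 for Fgfr4, a receptor of the FGF family, and 1.54 for Msln, mesothelin. Il33, with a gap of -2.03, and the basement membrane collagen Col15a1, with -2.24, lay on the lung side at E14 and on the TRAP side at E17. For Col15a1 the level in TRAP was 1.32 FPKM at E14 and 20.4 at E17, against 9.25 and 19 in whole lung. Rps27 (2.95) and Eif3j2 (3.58) have near-identical copies or an overlapping record, and for Eif3j2 the sum with Eif3j1 differed by 0.05 at E14 and 0.19 at E17. The level of Rps27 was 9.41 and 346 FPKM in the 2 E16 wild-type TRAP libraries.

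Among the 42 records under 200 bases that were left out, 4 were at least 2-fold higher in TRAP (Mir2861, Mir684-1, Mir8092 and Mir8112), each resting on at most 2 fragments.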

How the results depend on the processing

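Neither Sox9 nor any gene in the sets of highest and lowest named genes changed direction under the alternatives run. None of these summed records of different symbols. Eif3j1, in the lowest set, summed with the overlapping Eif3j2 to a difference of 0.05 at E14. The direction of the other genes named here was not checked under every alternative, and those close to 0 could change sign. Among lists, glycolysis and hypoxia genes went from 2 higher and 0 lower to 0 and 2 after rescaling. With a pseudocount of 5 FPKM, 360 records were higher and 459 lower, and 1 airway gene was higher in place of 6. At a mean of at least 5 FPKM 596 records were lower and 3 airway genes higher, and rescaling to a common FPKM total also left 3 airway genes higher. By fragments inferred from the bounds 1734 records were lower. At 1.5-fold the counts were 1994 higher and 2140 lower, and at 4-fold 98 and 296. The other 16 of 24 record counts stayed within 1.5 times, as did 424 of 470 list counts. Of calls, 39.4% were toward TRAP, and rescaling to 588 higher and 1319 lower lowered that share. The median changed sign in 6 of 47 lists: endoplasmic reticulum genes (-0.01 when rescaled), guidance genes (-0.06 without a filter), IGF and ERBB genes (0.08 at 5 FPKM and 0.01 without a filter), Sox genes (0.10 under both), Wnt receptors and targets (0.11 at 5 FPKM) and imprinted genes (0.21 by fragments). The cause was not tested. No paired analysis was possible because each E14 group has 1 library. Depth limits low genes most: TRAP had a median of 364 fragments per kept record, against 865 in whole lung.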
